A study of Mus musculus with 72 samples.

Results

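The endothelin system was followed through 6 genes chosen by their symbols: the ligands Edn1, Edn2 and Edn3, the receptors Ednra and Ednrb, and the converting enzyme Ece1. All 6 were found among the 50600 genes of the count table. RNA was measured by polyA-selected RNA-seq in 72 libraries of mouse melanoma cell lines, which had been established from tumours of transgenic mice. The question was how stimulation or blockade of the gastrin-releasing peptide receptor, encoded by Grpr, changed gene expression. Each of 6 lines received 4 treatments in 3 replicates, namely mock (0.1% DMSO), 10 nM GRP, which is the peptide ligand of this receptor, 1 µM RC (the antagonist RC-3095), or both (GRP+RC), always for 4 h in 0.5% serum after 18 h of starvation.

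All lines carried the Tyr::NRASQ61K/° transgene, a mutant NRAS driven by the melanocyte promoter of tyrosinase. The female lines 1057 and 1064 also carried Cdkn2a-/-, a Cre under the same kind of promoter (Tyr::CreA/°) and Cdh1dF/dF, so that E-cadherin was lost, and they expressed Grpr of their own. The male line 1181 was Cdkn2a-/- and labelled Cdh1dF/dF but had no Cre. The female line 1014 was labelled with the NRAS transgene alone. Lines 1181 and 1014 had been transfected either with Grpr and tGFP behind a CMV promoter (1181-Grpr and 1014-Grpr) or with tGFP alone (1181-Ctrl and 1014-Ctrl), and were selected with geneticin. Whether these versions were clones or pools was not given in the sources used here. Each genotype and sex was therefore seen in 1 or 2 lines, and line, sex, genotype and transfection cannot be told apart in comparisons between lines. The study's methods describe its culture work in general as biological replicates, but the labels do not say what the libraries of 1 group shared, so part of the spread that the p-values measure may be technical.

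Endothelins are short peptides made from longer precursors, which furin-like convertases cut first and endothelin-converting enzymes cut last. Receptor A prefers endothelin 1 and endothelin 2, and receptor B binds all of the ligands alike. Both receptors can act through G proteins of the Gq/11 class, the class that the GRP receptor uses. In the melanocyte lineage the ligand endothelin 3 and receptor B are needed for the spread and survival of melanoblasts, and mice without either are spotted. Endothelin 1 of the skin comes largely from keratinocytes and blood vessels.

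The stretch of coding sequence that encodes the mature peptide of 21 residues is shown for the 3 ligands, because it shows how far apart the ligands are whose reads were counted separately. The bases were found in the GENCODE transcripts by the spacing of the cysteine codons, are written 5′ to 3′ on the coding strand, and have the 4 cysteine codons in capitals.
Edn1: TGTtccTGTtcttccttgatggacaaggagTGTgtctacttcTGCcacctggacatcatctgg
Edn2: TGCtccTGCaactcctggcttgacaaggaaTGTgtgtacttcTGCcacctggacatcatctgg
Edn3: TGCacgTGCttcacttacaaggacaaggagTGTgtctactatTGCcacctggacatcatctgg
Over these 63 bases Edn1 differed from Edn2 at 10 and from Edn3 at 13, and Edn2 differed from Edn3 at 15. The end of the stretch, which encodes the tail of the peptide, was the same in all 3. The genes lie far apart in GRCm38, with Edn1 on chromosome 13 (42301476 to 42307990), Edn2 on chromosome 4 (120161206 to 120167360) and Edn3 on chromosome 2 (174760619 to 174784042), all on the plus strand.

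Promoters are shown for Edn1, the ligand that rose with GRP, and for Ednrb, the receptor that fell. They come from RefSeq on GRCm38.p6, run from 250 bases before to 50 bases after the annotated start, and were matched for 6 of 6 genes. Capitals mark words that were searched for.
Edn1, chr13:42301226-42301525, plus strand: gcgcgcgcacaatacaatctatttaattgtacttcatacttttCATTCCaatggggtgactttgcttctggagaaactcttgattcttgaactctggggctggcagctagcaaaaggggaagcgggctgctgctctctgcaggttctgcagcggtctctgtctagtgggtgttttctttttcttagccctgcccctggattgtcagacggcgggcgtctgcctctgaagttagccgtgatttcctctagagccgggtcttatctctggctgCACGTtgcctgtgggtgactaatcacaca
Ednrb, chr14:103843652-103843951, minus strand: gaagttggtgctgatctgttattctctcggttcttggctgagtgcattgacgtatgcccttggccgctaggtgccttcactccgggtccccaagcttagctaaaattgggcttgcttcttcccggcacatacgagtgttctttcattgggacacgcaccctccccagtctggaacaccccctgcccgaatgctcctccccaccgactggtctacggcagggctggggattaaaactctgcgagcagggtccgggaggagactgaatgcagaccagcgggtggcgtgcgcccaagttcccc
The 5 words searched on both strands were the AP-1 site TGACTCA, the cAMP response element TGACGTCA, the TEAD site GGAATG, the hypoxia response core ACGTG and the MITF E-box core CATGTG. The Edn1 promoter held CATTCC, the TEAD word read on the other strand, 207 bases before the start and CACGT, the hypoxia core on the other strand, 22 bases after it. The Ednrb promoter held none of the 5 words. Its window follows the RefSeq start and lies inside the gene as GENCODE places it, with the 5′ end at 103844402. Bases before that end were not searched here for Ednrb. Of all 32851 promoters of the table, 14.7% held the TEAD word, 19.6% the hypoxia core, 14.2% the MITF core, 5.20% the AP-1 word and 1.79% the cAMP word. A match describes letters and is no evidence of binding, and the lack of one says only that these letters are not in this window.

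Ednra (chromosome 8, 77663031 to 77724464, minus strand, 8 exon blocks), Ednrb (chromosome 14, 103814625 to 103844402, minus strand, 8 exon blocks) and Ece1 (chromosome 4, 137862237 to 137965229, plus strand, 23 exon blocks) shared no exonic bases with genes on their own strand. A gene on the other strand covered 1.66% of the exonic bases of Ednra and 1.64% of those of Edn1. These positions are from GENCODE release 21, on GRCm38.

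Levels are given as CPM, the read count of a gene scaled to a common library size by TMM over all 72 libraries, in the order of replicates 1, 2 and 3. Library totals lay between 19512882 and 46862053 counts. A count of 3, taken as the floor for detection in a library, was worth 0.0679 to 0.159 CPM. Floors and intervals of counts cover counting error only. Differences between treatments were tested with edgeR's quasi-likelihood test in a fit of the 12 libraries of a line, and p-values were adjusted by Benjamini and Hochberg over all genes of the fit. A gene was called at an adjusted p under 0.05 with an absolute log2 fold change above 1. GRP, RC and GRP+RC were each set against the same mock libraries, and GRP+RC also against the same GRP libraries, so these comparisons are not independent of one another.

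The labels of 2 libraries did not match their RNA, as judged from Ddx3y, a gene of the Y chromosome, and from Grpr. The library labelled 1014-Ctrl mock replicate 2 had 64.3 CPM of Ddx3y and 48.1 CPM of Grpr, where the other 11 libraries of this line had 0 and at most 0.0334 CPM. The library labelled 1181-Grpr GRP+RC replicate 2 had 0 CPM of both, where the other 11 libraries had at least 36.9 and at least 8.46 CPM. Grpr reached 187 to 276 CPM in 1057, 469 to 1273 CPM in 1064, at most 80.7 CPM in 1181-Grpr and 108 to 632 CPM in 1014-Grpr. In 1181-Ctrl it was at most 0.0914 CPM. Cdh1 was at most 0.117 CPM in 1057 and 1064, 9.74 to 27 CPM in 1181-Grpr and 1181-Ctrl despite the Cdh1dF/dF label, and 0.701 to 5.13 CPM in 1014-Grpr and 1014-Ctrl. In the melanocyte gene Dct, the library labelled 1014-Ctrl had 5586 CPM, where the undoubted libraries of 1181-Grpr had 5270 to 5745 CPM. The library labelled 1181-Grpr had 21786 CPM of Dct, where the undoubted libraries of 1014-Ctrl had 20794 to 22736 CPM. Whether the 2 were exchanged was not tested, and they were kept under their labels. Both also stood apart in the endothelin genes, so results on these genes that rest on them are given with and without them where both were fitted.

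The libraries carried the markers of their lineage. All 8 melanocyte markers (Mitf, Sox10, Pax3, Dct, Tyr, Tyrp1, Pmel and Mlana) were above the floor in each line, with sums from 5715 to 38179 CPM per library. Summed over 6 endothelial markers, levels were 7.18 to 9.29 CPM in 1057, 3.10 to 6.17 CPM in 1064 and at most 0.673 CPM in the other lines. Of these markers, Cldn5 and Emcn were at or under the floor in every line. Of that list Cdh5 was 4.38 to 6.56 CPM in 1057 and 2.93 to 5.86 CPM in 1064, and Tek was 1.44 to 3.31 CPM in 1057. Sums of 6 fibroblast or smooth muscle markers were 0.804 to 23.6 CPM, those of 4 keratinocyte markers at most 4.18 CPM, those of 4 leukocyte markers 0.534 to 52.5 CPM and those of 3 glial markers 159 to 572 CPM. The part of cells other than melanoma cells in the results was not tested. In bulk RNA, fewer cells of a type and less RNA per cell cannot be told apart.

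**Figure D1:**
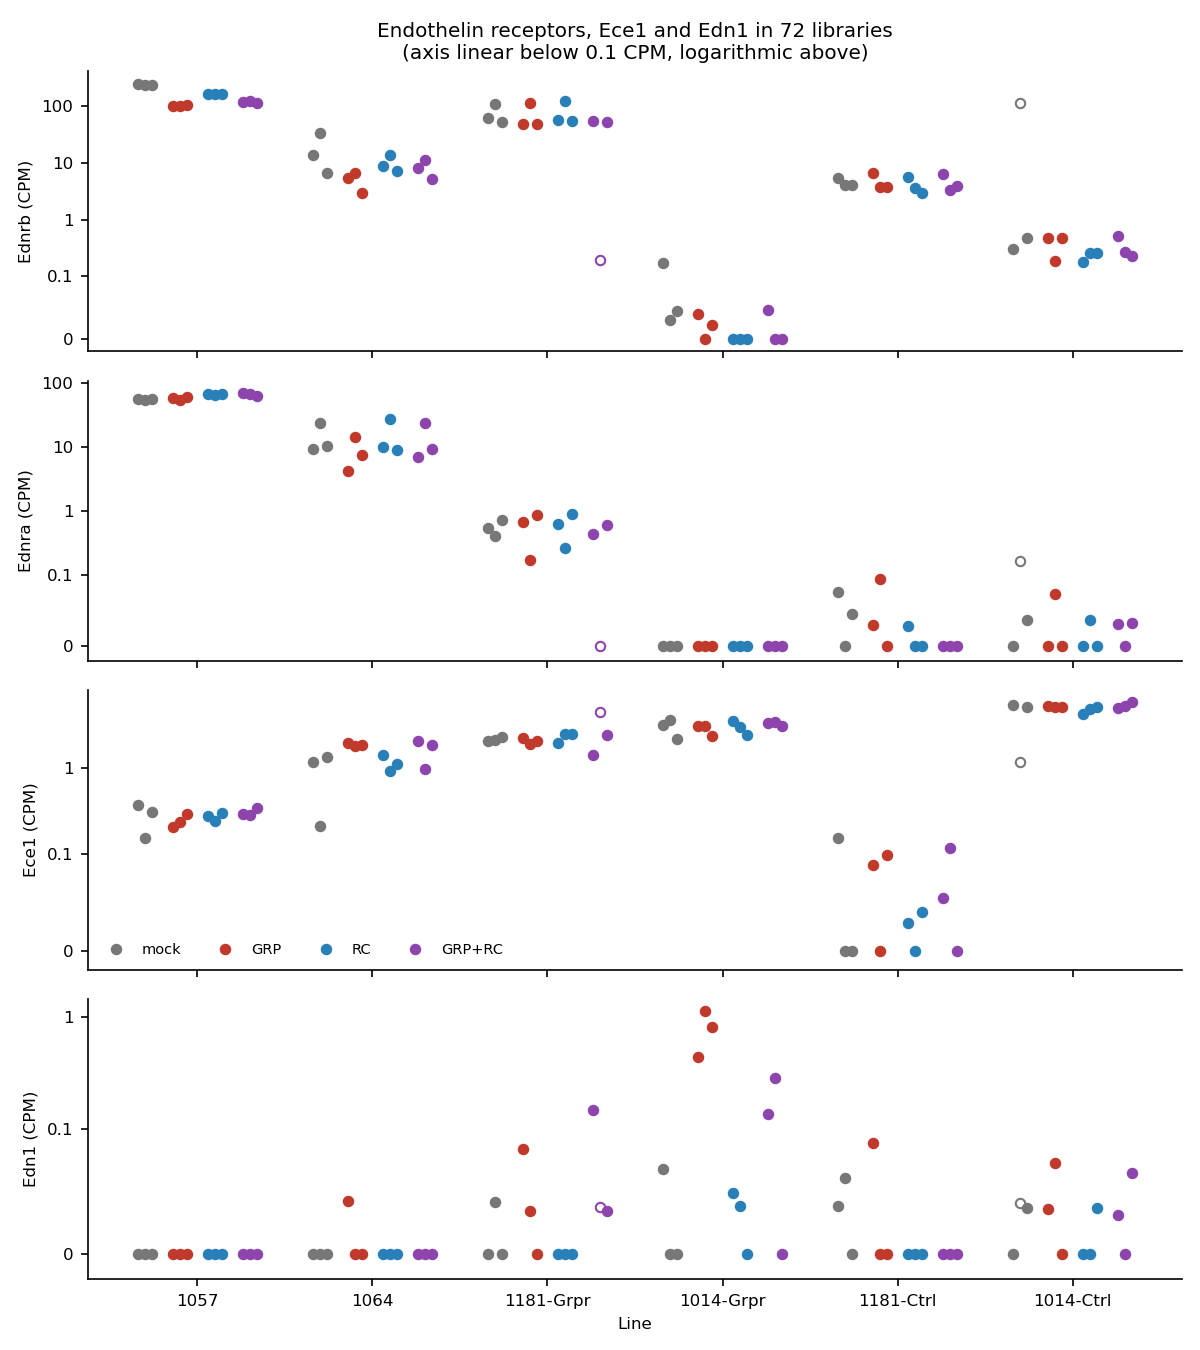
Levels of Ednrb, Ednra, Ece1 and Edn1 (1 panel per gene, CPM, on an axis that is linear below 0.1 CPM and logarithmic above) in each of the 72 libraries, 1 point per library, grouped by line along the horizontal axis and coloured by treatment, with open symbols for the 2 libraries that went against their labels. Ednrb and Ednra were highest in 1057, Ece1 was highest in 1014-Ctrl, and Edn1 stood up in the GRP libraries of 1014-Grpr.

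The ligands were at or near 0 in these cells. Edn3, the ligand that melanoblasts depend on, gave 1 count in all 72 libraries together, in 1014-Ctrl mock replicate 3. Edn2 gave 9 counts in 6 libraries and never more than 3 in a library. Edn1, the best known of the vascular endothelins, gave 122 counts in 25 libraries, and 81 of these came from the 3 GRP libraries of 1014-Grpr. Edn1 was at 0 counts in all 12 libraries of 1057 and at 1 count in all 12 of 1064. In the fits of single lines, Edn2 and Edn3 passed the filter on low counts nowhere and Edn1 in 1014-Grpr only. Ednra, Ednrb and Ece1 passed it in 1057, 1064 and 1181-Grpr, Ece1 alone joined Edn1 in 1014-Grpr, Ednrb passed it in 1181-Ctrl, and Ednrb and Ece1 in 1014-Ctrl. Whether a change in these genes occurred elsewhere was not detectable at this depth.

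Of the receptors, Ednrb was measurable in all lines except 1014-Grpr, and Ednra in 3 lines. In mock-treated 1057 cells Ednrb was at 248, 239 and 238 CPM, the highest level of any endothelin gene in any line. Mock-treated 1181-Grpr cells had 61.5, 108 and 52.1 CPM and mock-treated 1064 cells 13.8, 34.2 and 6.68 CPM. The 3 sets did not overlap.

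In the control version of 1181, mock-treated cells had 5.52, 4.08 and 4.07 CPM of Ednrb. The mock libraries of 1014-Ctrl had 0.304, 117 and 0.480 CPM, and the high value is that of the library that went against its label. Mock-treated 1014-Grpr cells had 0.171, 0.0304 and 0.0441 CPM, which is 5, 1 and 1 counts.

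Ordered by mock level without the doubtful library, Ednrb therefore fell from 1057 through 1181-Grpr, 1064, 1181-Ctrl and 1014-Ctrl to 1014-Grpr. Neighbours in this order were compared in a fit of all 72 libraries, in which 33.7% of genes were called between 1057 and 1181-Grpr, 30% between 1064 and 1181-Grpr, 33.7% between 1064 and 1181-Ctrl, and 19% between 1181-Ctrl and 1014-Ctrl. Without the doubtful libraries these shares were 34.3%, 30.5%, 34% and 26.6%. The step from 1057 to 1181-Grpr was 1.71 ± 0.840 on the log2 scale (SE, n = 3 against 3, adjusted p = 0.0731 by edgeR), and it was called without the 2 doubtful libraries (adjusted p = 5.3e-05). The step between 1064 and 1181-Grpr was called in both edgeR fits (log2 difference -2.02, adjusted p = 0.0398 with all libraries), although not without replicate 1 or replicate 3 (adjusted p = 0.16 and 0.21). The step from 1064 to 1181-Ctrl was called by edgeR only without the doubtful libraries (log2 difference 1.99, adjusted p = 0.0508 with all libraries and 1.8e-05 without the 2). DESeq2 with all libraries called none of these steps. Its adjusted p was 0.104 for 1057 minus 1181-Grpr, 0.0595 for 1064 minus 1181-Grpr and 0.0560 for 1064 minus 1181-Ctrl. The step from 1181-Ctrl to 1014-Ctrl turned its sign on the doubtful library, from -3.09 with it to 3.52 without it (adjusted p = 0.00551 and 7.5e-06 by edgeR). Between 1014-Grpr and 1014-Ctrl the log2 difference was -8.82 with it (adjusted p = 0.00011, with 3.43% of genes called) and -2.21 ± 1.13 without the 2 libraries (adjusted p = 0.884, with 0.456% of genes called), which is within the spread.

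The versions of 1181 with and without Grpr differed at all 3 measurable endothelin genes. Mock levels in 1181-Grpr exceeded those in 1181-Ctrl by 4.01 ± 0.951 on the log2 scale for Ednrb (adjusted p = 0.00162 by edgeR), by 3.77 ± 1.07 for Ednra (adjusted p = 0.0105) and by 5.28 ± 0.629 for Ece1 (adjusted p = 2.3e-09), where 7.63% of all genes were called. Without replicate 3, Ednrb and Ednra missed the threshold (adjusted p = 0.055 and 0.18), and without replicate 1 Ednra did (adjusted p = 0.077), while Ece1 passed it each time. Ece1 had 185 counts in the 3 mock libraries of 1181-Grpr and 4 in those of 1181-Ctrl, a ratio of 42.6 (95% counting interval 16.4 to 158). For Ednra the counts were 50 and 3, a ratio of 15.4 (95% counting interval 4.96 to 76.9). The 2 versions also differed in their melanocyte markers, with sums of 14101 to 15977 CPM in the mock libraries of 1181-Grpr and 5805 to 6047 CPM in those of 1181-Ctrl. The markers differed unevenly. Over all treatments, medians in 1181-Grpr and 1181-Ctrl were 1325 and 1.39 CPM for Tyrp1 and 5647 and 243 CPM for Dct. They were 234 and 85.5 CPM for Mlana, 3615 and 2809 CPM for Pmel, and 1649 and 1410 CPM for Tyr. Mitf had 391 and 362 CPM, Sox10 971 and 914 CPM, and Pax3 307 and 328 CPM. The part of that difference in the endothelin genes was not tested.

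Ednra followed another order. Mock-treated 1057 cells had 56.2, 55.6 and 56.9 CPM of it. Mock-treated 1064 cells had 9.38, 23.6 and 10.6 CPM. Replicate 2 stood above the others in 1064, and all 3 values lay far below those of 1057.

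In 1181-Grpr the level was 0.171 to 0.901 CPM over the 11 undoubted libraries. The remaining lines were at the floor or below it, with 0 counts of Ednra in the 12 libraries of 1014-Grpr, 8 counts in the 12 of 1181-Ctrl and at most 2 counts in each undoubted library of 1014-Ctrl. The mock level in 1057 exceeded that in 1064 by 1.95 ± 0.465 on the log2 scale (adjusted p = 0.000462 by edgeR, with 27% of genes called), and that in 1064 exceeded that in 1181-Grpr by 4.67 ± 0.575 (adjusted p = 4.0e-09). Against 1014-Grpr, where 3 counts per library were taken as the bound, Ednra was at least 518-fold higher in 1057, at least 134-fold higher in 1064 and at least 5.19-fold higher in 1181-Grpr.

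Ece1, which releases the active peptides from their precursors, was low in every line and highest in both versions of 1014, where Ednrb was lowest. The undoubted mock libraries of 1014-Ctrl had 5.20 and 5.02 CPM, and mock-treated 1014-Grpr cells had 3.14, 3.49 and 2.16 CPM. Mock-treated 1181-Grpr cells had 2.0, 2.07 and 2.27 CPM, and mock-treated 1064 cells had 1.16, 0.212 and 1.31 CPM. In 1057 the level was 0.155 to 0.368 CPM over all 12 libraries, and in 1181-Ctrl 18 counts were spread over 7 of 12 libraries.

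Among neighbours in the order of Ece1, 1014-Ctrl and 1014-Grpr did not pass the test (log2 difference -0.38 for 1014-Grpr minus 1014-Ctrl, adjusted p = 0.711 by edgeR), nor did 1181-Grpr and 1014-Grpr (-0.47, adjusted p = 0.377, with 15.8% of genes called). The first of these steps rests on a doubtful library and was -0.81 without the 2 libraries (adjusted p = 0.607). With the block as well, both steps passed by the adjusted p alone, at -0.63 (adjusted p = 0.0291) and -0.73 (adjusted p = 0.00353), and neither passed the fold threshold. The other steps were called, that between 1064 and 1181-Grpr not without replicate 2 or replicate 3. They were -1.19 ± 0.426 for 1064 minus 1181-Grpr (adjusted p = 0.0144), -1.72 ± 0.493 for 1057 minus 1064 (adjusted p = 0.00263) and 2.37 ± 0.753 for 1057 minus 1181-Ctrl (adjusted p = 0.00531, with 37.2% of genes called). Without the 2 libraries and with the block, the step from 1064 to 1181-Grpr (-0.78, adjusted p = 0.0109) and that from 1057 to 1181-Ctrl (1.80, adjusted p = 0.0531) were not called.

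**Figure D2:**
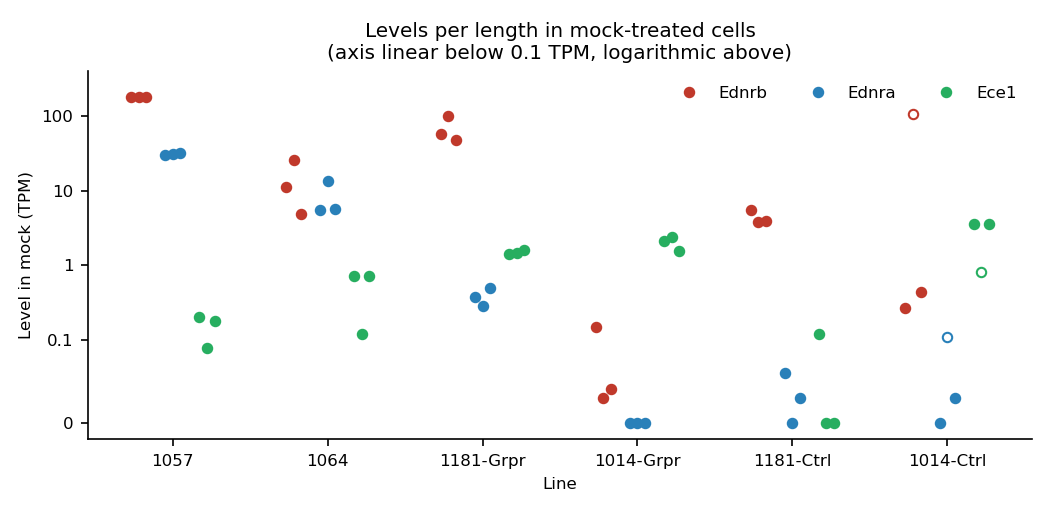
Level per length (TPM of the authors, on an axis that is linear below 0.1 TPM and logarithmic above) of Ednrb, Ednra and Ece1 in mock-treated cells of the 6 lines, 1 point per library, with open symbols for the library that went against its label. Ednrb led in 1057, 1181-Grpr and 1181-Ctrl, overlapped Ednra in 1064, and lay below Ece1 in 1014-Grpr and in the undoubted libraries of 1014-Ctrl.

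Levels of different genes were compared per length only, on the authors' TPM, which scale counts by transcript length and depth. Mock-treated 1057 cells had 180 ± 1.02 TPM of Ednrb (SD, n = 3), 30.9 ± 0.895 TPM of Ednra and 0.157 ± 0.0586 TPM of Ece1. In 1064 the same genes had 14.0 ± 11, 8.16 ± 4.46 and 0.517 ± 0.344 TPM. In 1181-Grpr Ednrb had 68.4 ± 27.4 TPM and Ece1 1.49 ± 0.0850 TPM, with Ednra at 0.387 ± 0.11 TPM. The receptor transcript pool was thus mostly Ednrb in 1181-Grpr and mixed in 1064. Dividing CPM by exon length in place of TPM left the order of Ednra, Ednrb and Ece1 the same in 6 of 6 lines.

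Ednrb fell with GRP in 1057. Mock-treated cells had 248, 239 and 238 CPM of Ednrb, as above. With GRP the level was 100, 102 and 105 CPM. With RC alone it was 166, 167 and 166 CPM, and with GRP+RC 120, 127 and 116 CPM. The 4 treatments did not overlap, with mock highest, then RC, then GRP+RC, then GRP.

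The log2 fold change of Ednrb with GRP was -1.21 ± 0.0320 (SE, adjusted p = 1.2e-15 by edgeR). Ednrb was the 1 endothelin gene called of 3 tested in 1057, where 6.46% of all genes were called and 1.5% were called lower. Every fit that left out 1 replicate number kept the call, with log2 fold changes from -1.23 to -1.18. A fit of all 72 libraries takes 1 estimate of the spread per gene over all lines and includes the 2 doubtful libraries. It gave -1.24 ± 0.828 with an adjusted p of 0.409 by edgeR, which is not a call. GRP against mock in 1057 was not fitted in this way without those 2 libraries.

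Ednrb also fell with RC alone, by 0.54 on the log2 scale (adjusted p = 9.6e-10 by edgeR), and with GRP+RC, by 0.99 (adjusted p = 4.4e-14). Neither passed the fold threshold, and 0 of 3 endothelin genes were called in either comparison, where 0.888% and 3.47% of all genes were. By the adjusted p alone, Ednrb and Ednra passed in both, where 24.3% and 44.3% of all genes did. DESeq2 called none of the 3 in either comparison and gave no adjusted p for Ece1 with RC. Against GRP alone, GRP+RC raised Ednrb by 0.22 ± 0.0330 on the log2 scale (adjusted p = 5.8e-05), again under the fold threshold, with 0 of 3 genes called by either tool and 1.02% of all genes called. By the adjusted p alone 2 of the 3 passed, where 24.7% of all genes did.

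Ednra did not follow Ednrb in 1057. With GRP it was at 58.1, 55.6 and 60.4 CPM, overlapping the mock values of 56.2, 55.6 and 56.9 CPM. With RC it was at 68.6, 66.6 and 67.8 CPM and with GRP+RC at 70.1, 68.8 and 62.8 CPM, above every mock library. The log2 fold change was 0.07 ± 0.0400 with GRP (adjusted p = 0.137 by edgeR), 0.26 with RC (adjusted p = 9.3e-05) and 0.26 with GRP+RC (adjusted p = 3.0e-05). Against GRP alone, GRP+RC was higher by 0.19 (adjusted p = 0.0016). The difference of Ednra between RC and mock was therefore larger than the spread between replicates but small.

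As Ednrb fell and Ednra did not, the balance of the receptor transcripts moved. On the TPM scale, Ednra made up 14.6% ± 0.346 (SD, n = 3) of both receptors in mock-treated 1057 cells, 29.5% ± 0.747 with GRP, 23.0% ± 0.339 with RC and 29.0% ± 0.885 with GRP+RC. The share was above every mock value in each treated library. Ece1 in 1057 stayed at 5 to 12 counts per library, and its log2 fold changes lay between -0.15 and 0.30 with adjusted p from 0.645 to 0.955 (edgeR).

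**Figure D3:**
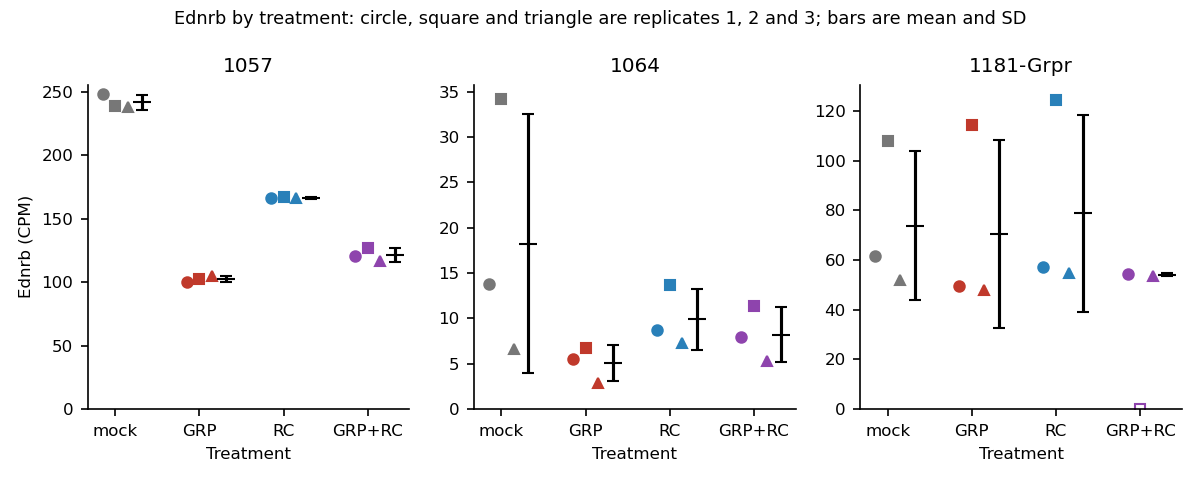
Ednrb (CPM, linear axes that start at 0 and differ between panels) by treatment in 1057, 1064 and 1181-Grpr, with circle, square and triangle for replicates 1, 2 and 3, and the mean and SD beside them. The open symbol is the doubtful library, which is left out of the mean. In 1057 the GRP libraries lay at 100 to 105 CPM, below the mock libraries at 238 to 248 CPM, and in 1181-Grpr replicate 2 lay above the others in mock, GRP and RC.

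In 1064 the levels of Ednrb moved the same way but the libraries spread widely. Mock-treated cells had 13.8, 34.2 and 6.68 CPM of Ednrb and GRP-treated cells 5.48, 6.76 and 2.89 CPM. RC-treated cells had 8.67, 13.7 and 7.26 CPM and cells given both 8.0, 11.4 and 5.28 CPM. Within each replicate number the GRP library was the lowest of the 4, but the lowest mock library overlapped the GRP libraries.

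The log2 fold change of Ednrb with GRP in 1064 was -1.85 ± 0.565 (SE, adjusted p = 0.0807 by edgeR), and 0 of 3 endothelin genes were called, where 2.32% of all genes were. At an unadjusted p under 0.05 the count was 1. DESeq2 called Ednrb (log2 fold change -1.84, adjusted p = 0.0102). Same-numbered libraries of 1064 deviated together in all pairs, so the replicate number was also entered as a block. With the block the log2 fold change was -1.69 ± 0.248 (adjusted p = 0.00045), and Ednrb and Ece1 were called, where 6.52% of all genes were. Leaving out 1 replicate number gave -2.07 to -1.28 without the block, none of them called.

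RC alone gave -0.88 ± 0.547 for Ednrb in 1064 and GRP+RC gave -1.16 ± 0.550 (adjusted p = 1 for both by edgeR, -0.71 and -1.0 with the block, adjusted p = 0.54 and 0.14). In both comparisons 0 of 3 endothelin genes were called by edgeR and by DESeq2, and 0% of all genes were called. Without the block, 0 had an unadjusted p under 0.05 by edgeR. With the block none was called either, but the unadjusted p of Ednrb by edgeR was 0.0100 with RC and 0.0013 with GRP+RC. That of Ece1 was 0.0344 with GRP+RC. By DESeq2 the unadjusted p of Ednrb with GRP+RC was 0.0340. Against GRP alone, GRP+RC gave 0.69 ± 0.555 for Ednrb (adjusted p = 0.803 by edgeR), with 0 of 3 genes called by either tool, 0 at an unadjusted p under 0.05 by edgeR and 0.0145% of all genes called. With the block 1.93% of all genes were called and again 0 of 3 endothelin genes, while Ednra passed by the adjusted p alone (log2 difference 0.56, adjusted p = 0.0246) and Ednrb had an unadjusted p of 0.0226 (adjusted p = 0.0826).

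Ednra in 1064 was 4.32, 14.3 and 7.64 CPM with GRP against 9.38, 23.6 and 10.6 CPM in mock. The GRP library was the lower one in 3 of 3 replicate numbers, and the groups overlapped. Its log2 fold change was -0.72 ± 0.633 (adjusted p = 0.568 by edgeR) and -0.74 ± 0.151 with the block (adjusted p = 0.0028), under the fold threshold in both. RC-treated cells had 10.3, 27.9 and 9.14 CPM and cells given both 7.05, 24.1 and 9.34 CPM.

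Ece1 went the other way in 1064. Mock-treated cells had 1.16, 0.212 and 1.31 CPM and GRP-treated cells 1.93, 1.79 and 1.82 CPM. All GRP libraries were above all mock libraries. The log2 fold change was 1.02 ± 0.494 (adjusted p = 0.26 by edgeR), and with the block 1.03 ± 0.329 (adjusted p = 0.027). The counts behind it were small, from 4 to 38 in the mock libraries.

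The replicate numbers of 1064 differed in their lineage markers as well. Over the 4 treatments the sum of the melanocyte markers was 26941 to 29918 CPM in replicate 1, 12303 to 13391 CPM in replicate 2 and 16036 to 16888 CPM in replicate 3. Ednra was 14.3 to 27.9 CPM in replicate 2 and 4.32 to 10.6 CPM in the others. The part of the marker difference in the receptor levels was not tested.

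No endothelin gene was called under any treatment in 1181-Grpr. Mock-treated cells had 61.5, 108 and 52.1 CPM of Ednrb, GRP-treated cells 49.5, 114 and 48.0 CPM and RC-treated cells 57.1, 125 and 55.0 CPM. Cells given both had 54.6 and 53.7 CPM in replicates 1 and 3, and the doubtful library had 0.191 CPM. Replicate 2 was the highest in mock, GRP and RC, and the treatments overlapped.

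The log2 fold change of Ednrb with GRP in 1181-Grpr was -0.07 ± 1.00 with all 12 libraries and -0.07 ± 0.427 without the doubtful one (adjusted p = 1 for both by edgeR). Without that library same-numbered samples deviated together, and the block then gave -0.11 ± 0.0470 (unadjusted p = 0.0323, adjusted p = 0.455 by edgeR). With all 12 libraries, in each of the 4 comparisons of this line 0 of 3 endothelin genes were called by edgeR and by DESeq2, 0 had an unadjusted p under 0.05 by edgeR, and 0% of all genes were called. The higher Ednrb of replicate 2, at 108 to 125 CPM against 48.0 to 61.5 CPM, went with a melanocyte marker sum of 15977 to 16542 CPM against 13302 to 14275 CPM, and the part of the latter was not tested. Ece1 stayed at 1.40 to 2.46 CPM over the 11 undoubted libraries.

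Whether GRP acted differently on Ednrb in 1057, 1064 and 1181-Grpr was tested as an interaction in the fit of all libraries. With all 72 libraries and without the block, 0 of 4 endothelin genes were called in each of the 6 pairs of Grpr-positive lines by edgeR and by DESeq2, and 0 had an unadjusted p under 0.05 by edgeR, where the share of all genes called ran from 0.235% (1064 against 1014-Grpr) through 0.392% (1057 against 1064), 0.922%, 0.94% and 1.52% to 1.53% (1057 against 1181-Grpr). By DESeq2 the unadjusted p of Ece1 was 0.0389 for 1064 minus 1181-Grpr and 0.0329 for 1064 minus 1014-Grpr (adjusted p = 0.231 and 0.478). Without the 2 doubtful libraries, Ednrb was called for 1064 minus 1181-Grpr (log2 difference -1.78 ± 0.524, adjusted p = 0.0302 by edgeR) but not for 1057 minus 1181-Grpr (-1.17 ± 0.496, adjusted p = 0.208), where 1.98% and 2.01% of all genes were. Without them and with the block, both were called (adjusted p = 4.9e-10 and 1.0e-11), where 4.7% and 4.25% of all genes were. The log2 difference of the Ednrb effect between 1057 and 1064 was 0.61 ± 1.20 with all libraries and was not called in any of these fits, although without the 2 libraries and with the block its adjusted p was 0.032 at a log2 difference of 0.51.

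**Figure D4:**
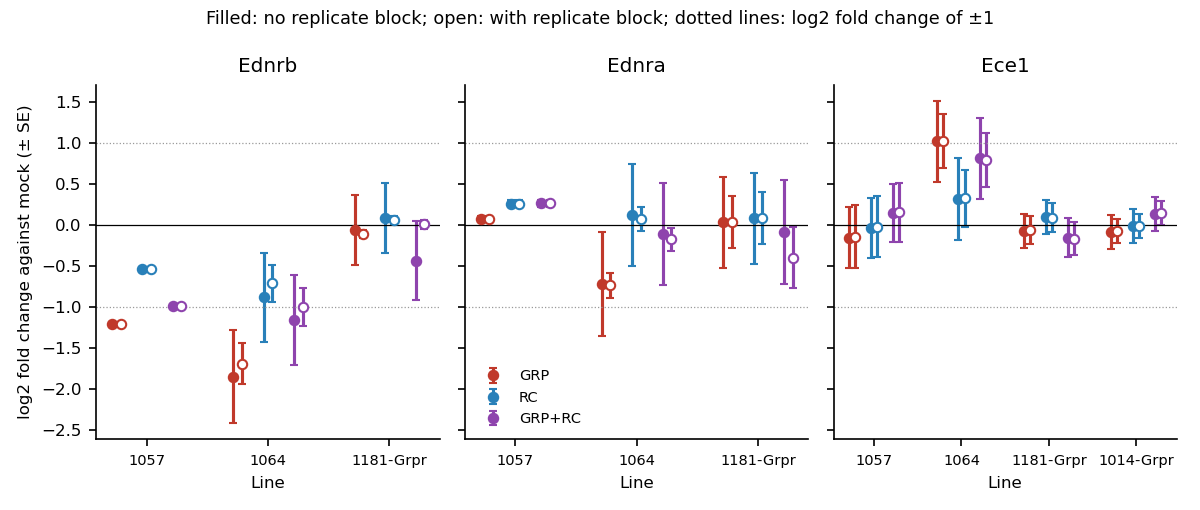
Log2 fold change against mock (points) with 1 standard error (bars) for Ednrb, Ednra and Ece1 under GRP, RC and GRP+RC, by line, without (filled) and with (open) the replicate block. The doubtful library was left out of 1181-Grpr, and dotted lines mark a log2 fold change of -1 and 1. Without the block, Ednrb under GRP lay at -1.21 in 1057, -1.85 in 1064 and -0.07 in 1181-Grpr.

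In 1014-Grpr the receptors were not measurable, and Edn1 rose with GRP. Its counts were 2, 0 and 0 in the mock libraries and 11, 34 and 36 in the GRP libraries, which is 0.437, 1.13 and 0.814 CPM. RC-treated cells had 1, 1 and 0 counts, and cells given both had 3, 7 and 0 counts. Every GRP library lay above every other library of the line and only the GRP libraries and the highest GRP+RC library were above the floor of 3 counts.

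Summed over libraries, the ratio of Edn1 in GRP to mock was 34.6 (95% counting interval 9.27 to 290), that of GRP to RC 30.3 (8.11 to 254) and that of GRP to GRP+RC 5.77 (2.98 to 12.5). The fitted log2 fold change was 4.85 ± 0.898 (SE, adjusted p = 0.0017 by edgeR). Edn1 was the 1 endothelin gene called of 2 tested, where 4.01% of all genes were called. Edn1 passed the filter on low counts only through its high GRP libraries. The number of genes tested in this line was therefore not independent of the rise. Leaving out 1 replicate number gave 3.93 to 7.82 with adjusted p from 0.012 to 0.040, and DESeq2 gave 5.09 (adjusted p = 0.00055). Same-numbered libraries of 1014-Grpr also deviated together, so the replicate number was entered as a block. With the block the log2 fold change was 4.91 ± 0.734 (adjusted p = 1.4e-05 by edgeR), where 638 of 13730 genes were called. The size of a fitted fold change over such low mock counts depends on the prior count, and the counts themselves are the firmer value.

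Adding RC to GRP lowered Edn1 by 2.47 ± 0.682 on the log2 scale (adjusted p = 0.0354 by edgeR). This was a call in 1 of the same 2 endothelin genes, where 1.73% of all genes were called. The high GRP libraries through which Edn1 passed the filter are also the baseline here. The call and its adjusted p are therefore not independent of that filter. Leaving out any 1 replicate number, without the block, ended this call, with adjusted p from 0.13 to 0.18. With the block and all replicates the log2 difference was -2.51 ± 0.540 (adjusted p = 0.00108 by edgeR), where 313 of 13730 genes were called. GRP+RC against mock was not called (log2 fold change 2.38 ± 1.25, adjusted p = 0.505), nor was RC against mock (0.18 ± 1.70, adjusted p = 1). Without the block, 0 of 2 genes were called in these comparisons by edgeR and by DESeq2, which gave no adjusted p for Edn1 with GRP+RC. By edgeR 0 had an unadjusted p under 0.05, and 0.189% and 0% of all genes were called. With the block, GRP+RC against mock gave 2.40 ± 1.13 for Edn1 (unadjusted p = 0.0481, adjusted p = 0.163 by edgeR), which is not a call.

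For 1181, whether GRP acted differently in the versions with and without Grpr could also be tested, and the log2 difference for Ednrb was -0.11 ± 1.19 with all libraries and -0.11 ± 0.586 without the doubtful ones (adjusted p = 1 by edgeR for both). None of 3 endothelin genes was called there by edgeR or DESeq2, 0 had an unadjusted p under 0.05 by edgeR, and 0% of all genes were called.

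The rise of Edn1 was not shown to depend on the transfected Grpr. The GRP libraries of 1014-Ctrl held 3 counts of Edn1, and the ratio of 1014-Grpr to 1014-Ctrl under GRP was 23.1 (95% counting interval 7.63 to 114). Between the versions the GRP effect differed by 4.46 ± 2.15 on the log2 scale, which was not called (adjusted p = 0.178 by edgeR, unadjusted p = 0.0514), where 3.89% of all genes were called. Without the 2 doubtful libraries it was 4.09 ± 2.89 (adjusted p = 0.373), where 2.99% of all genes were called. In both, 0 of 3 endothelin genes were called by edgeR, none of them had an unadjusted p under 0.05 by edgeR with all libraries, and DESeq2, which gave no adjusted p for Edn1 and Ednrb, called none (unadjusted p = 0.0267 for Edn1).

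Markers of endothelial cells, the classical source of Edn1, were low in this line. The summed endothelial markers were 0.132 to 0.304 CPM in the mock libraries and 0.0665 to 0.204 CPM in the GRP libraries of 1014-Grpr, and Cdh5, Cldn5 and Emcn were at or under the floor. Ece1 in this line was 2.16 to 3.49 CPM in all 12 libraries, with log2 fold changes between -0.09 and 0.22 and adjusted p from 0.57 to 1 (edgeR).

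**Figure D5:**
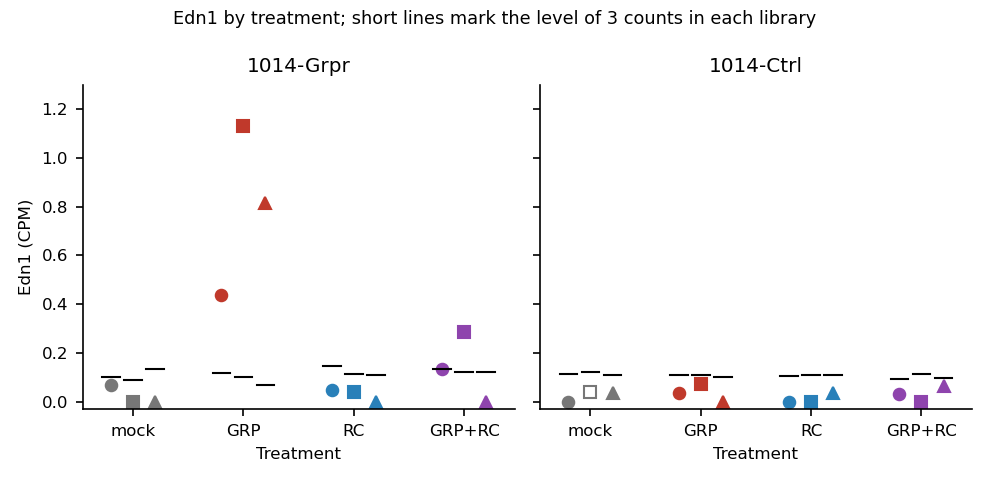
Edn1 (CPM, linear axis) by treatment in 1014-Grpr and 1014-Ctrl, with circle, square and triangle for replicates 1, 2 and 3, a short line at the level that 3 counts have in each library, and an open symbol for the doubtful library. The GRP libraries of 1014-Grpr, at 0.437, 1.13 and 0.814 CPM, stood above every other library shown.

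No endothelin gene was called in the fits of the lines without Grpr. In 1181-Ctrl Ednrb was 5.52, 4.08 and 4.07 CPM in mock, 6.73, 3.71 and 3.69 CPM with GRP, 5.64, 3.59 and 2.95 CPM with RC and 6.30, 3.27 and 3.93 CPM with both. Replicate 1 was the highest in every treatment, and the treatments overlapped. Ednrb was the only endothelin gene tested there. Its log2 fold change with GRP was 0.03 ± 0.347 (adjusted p = 1 by edgeR), and in all 4 comparisons it was called neither by edgeR nor by DESeq2, its unadjusted p by edgeR was above 0.05, and 0% of all genes were called.

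In 1014-Ctrl, leaving out the doubtful library, Ednrb was 0.304 and 0.480 CPM in mock, 0.467, 0.183 and 0.468 CPM with GRP, 0.178, 0.258 and 0.258 CPM with RC and 0.505, 0.267 and 0.227 CPM with both. Ece1 was 4.17 to 5.68 CPM over these 11 libraries. With the doubtful library, whose Ednrb was 117 CPM, the log2 fold change of Ednrb with GRP was -6.71 ± 1.91 (adjusted p = 0.698 by edgeR, unadjusted p = 0.0051), and without it -0.07 ± 0.481 (adjusted p = 1). With it, 0 of 2 endothelin genes were called by edgeR and 1 had an unadjusted p under 0.05 in GRP, RC and GRP+RC against mock, and 0% of all genes were called. DESeq2 gave no adjusted p for Ednrb there and called neither gene.

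Of the means over lines, that of the control lines turned on the doubtful libraries. Over the 4 Grpr-positive lines the mean log2 fold change was -1.25 ± 1.04 with all libraries (adjusted p = 0.438 by edgeR) and -1.25 ± 0.497 without the 2 (adjusted p = 0.0533), so that 0 of 4 endothelin genes were called, where 2.28% and 2.5% of all genes were. DESeq2 also called none with all libraries (adjusted p = 0.066 for Ednrb), and by edgeR 0 had an unadjusted p under 0.05 there. Without the 2 libraries the unadjusted p of Ednrb by edgeR was 0.0156. With the block added, the mean was -1.19 ± 0.427 (adjusted p = 0.0166), a call where 2.8% of all genes were called. Over the 2 control lines the mean was -3.33 ± 0.749 with all libraries (adjusted p = 0.0168), a call where 1.09% of all genes were called, and it was -0.02 ± 0.462 without the 2 libraries (adjusted p = 1), where 0% of all genes were. The difference between the 4 and the 2 lines was called with neither set (adjusted p = 0.617 and 0.316), where 1.83% and 1.04% of all genes were. The mean over 4 lines also includes 1014-Grpr, whose Ednrb was at the floor.

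Other genes of endothelin processing, breakdown and signalling were taken from a list of 33, of which 21 to 24 passed the filter on low counts in a line. With GRP, 2 of the 24 tested in 1057 were called higher and 0 lower (6.46% of all genes called), 1 of 21 higher in 1064 (2.32%), 2 of 23 higher and 1 lower in 1014-Grpr (4.01%), and none in 1181-Grpr, 1181-Ctrl and 1014-Ctrl, where 0% of all genes were called. By the adjusted p alone, 6 were higher and 8 lower in 1057, where 52.6% of all genes passed, and the median log2 fold change was -0.06 against -0.01 over all genes tested. The list as a whole thus lay close to the other genes. The gene called in 3 lines was Rgs2, which shortens signalling by Gq. It went from 2.57 ± 0.11 to 49.2 ± 2.43 CPM in 1057 (log2 fold change 4.28, adjusted p = 2.4e-17 by edgeR), from 6.16 ± 4.08 to 58.6 ± 4.79 CPM in 1064 (3.25, adjusted p = 0.0041) and from 3.04 ± 0.516 to 22.3 ± 5.70 CPM in 1014-Grpr (2.88, adjusted p = 3.3e-06).

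Ecel1, a relative of the converting enzymes found mainly in neurons, rose in 1014-Grpr from 0.0451 ± 0.0456 to 1.09 ± 0.328 CPM (log2 fold change 4.44, adjusted p = 0.00013 by edgeR). Its mock level was at the floor. Like Edn1, Ecel1 may therefore have passed the filter on low counts through its high GRP libraries. Its adjusted p and its place among the listed genes called are then not independent of the rise. Rgs4, another brake on Gq signals, rose in 1057 from 0.144 ± 0.0478 to 0.306 ± 0.0179 CPM (1.10, adjusted p = 0.032). The levels of Rgs4 were low, with that in mock near the floor. Pcsk5, a convertase of the furin kind, fell in 1014-Grpr from 0.789 ± 0.192 to 0.368 ± 0.192 CPM (-1.16, adjusted p = 0.038). Gnaq and Gna11, the G proteins both receptors use, were called in no line. Their log2 fold changes in 1057 were 0.15 and -0.05.

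Of 10 regulators that act with receptor B in the melanocyte lineage, 2 were called higher and 0 lower with GRP in 1057, 1 higher and 2 lower in 1064, and 1 higher in 1014-Grpr, where 6.46%, 2.32% and 4.01% of all genes were called. By the adjusted p alone 7 were higher and 2 lower in 1057, where 52.6% of all genes passed. With the block the counts in 1064 were 2 higher and 2 lower, where 6.52% of all genes were called, and Kitl was the call gained (log2 fold change 1.31, adjusted p = 0.00073). The genes named here were chosen after their values were seen. Kit, the other receptor that melanoblasts need, fell in 1064 from 121 ± 41.6 to 50.1 ± 10.1 CPM (log2 fold change -1.27, adjusted p = 0.017 by edgeR), and in 1057 from 663 ± 10.1 to 449 ± 3.02 CPM (-0.53, adjusted p = 1.8e-11), under the fold threshold there. Mc1r, the melanocortin receptor, fell by 1.77 on the log2 scale in 1064 (adjusted p = 0.0041) and by 0.83 in 1057 (adjusted p = 3.5e-13). Kitl, the ligand of Kit, rose by 2.18 in 1057 (adjusted p = 8.6e-14) and 1.14 in 1014-Grpr (adjusted p = 6.7e-06), and Foxd3, a repressor of melanocyte fate in the neural crest, by 1.93 in 1057 (adjusted p = 3.1e-07) and 1.10 in 1064 (adjusted p = 0.0022). Mitf, the master regulator of the lineage, was higher in 1057 by 0.94 (adjusted p = 1.7e-13), under the fold threshold.

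The genes whose pattern over lines and treatments was most like that of an endothelin gene were taken by Pearson correlation of log2(CPM + 1) over the 24 means of line and treatment, among 12501 genes with a mean of at least 1 CPM. These means share libraries within a line and differ mostly between lines, so the correlations describe the order of the lines. For Ednra they were Gm38414 (0.999), Fahd2a (0.993) and Fam43b (0.993). For Ednrb they were Rbms3 (0.981), Rest (0.970) and Car2 (0.967), and for Ece1 Ddr2 (0.978), Rhog (0.977) and Zfp993 (0.977). Without the 2 doubtful libraries Apbb1ip took the place of Zfp993.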

How the data were processed

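RNA in 72 libraries of 6 mouse melanoma lines was sequenced as polyA-selected, strand-specific libraries, and per the labels and methods the reads were checked with FastQC 0.11.5, aligned with STAR to GRCm38.p5 (mm10) and counted by STAR with GENCODE release 13. The strand setting of the counting was not given in the sources used here. The authors deposited raw read counts per gene without normalization, and TPM values, of which the 12 columns of 1057 were written with a decimal comma that was read as a point. Positions are from GENCODE release 21.

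The counts as deposited were filtered with filterByExpr and normalized by TMM, and edgeR 4.0.16 gave quasi-likelihood tests with Benjamini-Hochberg adjustment (limma 3.58.1, R 4.3.3), in a fit of 12 libraries per line or of all 72 for comparisons of lines. Alternatives were DESeq2 1.42.0, DESeq2's size factors, counts left unfiltered, calls by the adjusted p only, a fit of all libraries, the replicate number as a block, each replicate number left out, and the 2 libraries that went against their labels left out, with and without the block. Plots used matplotlib 3.10.9. The standard error of a log2 fold change was obtained from its size and the F statistic. The steps were tested on simulated data.

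Replicate numbers were taken as pairs where every correlation of same-numbered libraries' deviations was above 0.1, which held in 1064 (lowest 0.583), 1014-Grpr (0.386) and 1181-Ctrl (0.740), and in 1181-Grpr (0.444) and 1014-Ctrl (0.340) without the doubtful library, but not in 1057 (-0.154). The labels do not say what a number shares.

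The text names the 6 endothelin genes, listed pathway genes called with GRP in a line, 3 checks of labels and the 3 genes most like each member with a mean of at least 1 CPM. The members and lists were chosen with earlier results of these data known, so no list is independent evidence. Protein sequences were not used here.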

Additional observations from a re-analysis of the deposited data

How the results depend on the processing

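Values here are the number of endothelin genes called unless a log2 value is named. In 1057, Ednrb with GRP was called in each fit but that of all 72 libraries, which gave 0, and by the adjusted p alone the count was 2 in place of 0 for RC, GRP+RC and GRP+RC against GRP. For GRP+RC in 1057, leaving out a replicate number gave 0 to 1. In 1064 with GRP the count of 0 became 1 by DESeq2 and 2 with the replicate block. In 1014-Grpr the call for GRP+RC against GRP gave 0 without any replicate number and 0 in the fit of all libraries. That fit gave 1 for each treatment of 1014-Ctrl against mock, the doubtful library included. The mean over the 4 Grpr-positive lines gave 0 to 1 when a replicate number was left out, and 1 without the doubtful libraries and with the block. The mean over the control lines, 1, gave 0 with the block, without each replicate number and without the doubtful libraries, and its Ednrb value ran from -3.80 to 0.18 when a replicate number was left out and was 0.057 without the doubtful libraries and with the block. Differences of the GRP effect without the doubtful libraries became 1 for 1064 minus 1181-Grpr, and with the block 2 for that pair, 1 for 1057 minus 1181-Grpr and 1 for 1064 minus 1014-Grpr. Among mock levels, leaving out a replicate number gave 1 to 3 for 1181-Grpr against 1181-Ctrl and 0 to 3 for 1181-Grpr against 1014-Ctrl, the last also 3 with the block and without the doubtful libraries. For 1064 against 1181-Grpr, leaving out replicate 3 gave 1. The 1014-Grpr against 1014-Ctrl count of 1 became 0 with the block, without replicate 2 and without the doubtful libraries, and 1181-Ctrl against 1014-Ctrl became 1 with the block. Mock Ednrb turned its sign for 1064 minus 1014-Ctrl, from -1.10 to between -1.53 and 4.68 when a replicate number was left out, 5.51 without the doubtful libraries and 5.25 with the block as well, and for 1181-Ctrl minus 1014-Ctrl, from -3.09 to 1.64 with the block, between -3.84 and 3.58 when a replicate number was left out, 3.52 without the doubtful libraries and 3.94 with the block as well. Apart from these, the replicate block changed no count of calls by more than 1.5 times. DESeq2's size factors and the lack of a filter changed none of the 50 counts beyond that. The cause of these changes was not tested. Depth limits Edn1, Edn2 and Edn3, which lay at or under 3 counts in most libraries.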
